A study of Mus musculus with 61 samples.

Results

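The oogenesins (Oog1 to Oog4) and PRAME-like genes (Pramel1 and Pramel3 to Pramel7) are 10 members of the mouse Prame gene family, and they are described here across preimplantation development and across Klf17 genotypes. They were taken by gene symbol alone: all 10 were found among the 24551 genes of the development table and among the 22911 genes of the genotype table, and all 10 passed the filter on low counts in both. Messenger RNA was profiled by SLAM-seq, in which the uridine analogue 4-thiouridine (4SU) is built into RNA made during labelling and then alkylated before the libraries are sequenced. The development set held MII oocytes (eggs arrested in the second meiotic metaphase) and wild-type embryos from in vitro fertilisation in 9 windows named by hours post insemination (hpi), with 3 libraries per group, 10 embryos per library, and 2 mM 4SU for 6 h. The genotype set was collected at the stage labelled M2C and held 3 wild-type control libraries (ctrl), 3 labelled Klf17 KO (KO), 3 labelled Klf17 maternal KO (mKO) and 2 labelled Klf17 paternal KO (pKO), all 4SU-labelled. All females were superovulated with PMSG and hCG, and how the Klf17 alleles were made is not given in the sources used here.

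PRAME family proteins are built from leucine-rich repeats, and the family has expanded in rodents into many similar genes that are active mainly in the germ line and the early embryo. Several members act as substrate receptors of ubiquitin ligases built on the scaffold CUL2. Pramel7 is the best studied in embryos: its protein acts with CUL2 to degrade UHRF1, the partner of the maintenance DNA methyltransferase DNMT1, and both Pramel6 and Pramel7 are known from the inner cell mass and from the LIF and STAT3 pathway of embryonic stem cells. Oog1 was described as an oocyte-specific gene, Pramel1 is known mainly from the testis, and Pramel3 lies on the X chromosome.

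The libraries held 7395193 to 13301570 counted reads in the development set and 14080264 to 23018252 in the genotype set. No pair of replicates agreed within sampling noise. Levels are CPM, a gene's share of the TMM-scaled library total, given as mean ± SD of the libraries of a group (n = 3, or 2 for pKO) or library by library in the order of the replicate labels. Whether reads without a T-to-C conversion are included is not given in the sources used here, so a level may include RNA made before labelling. The libraries were made with oligo-dT, so levels are those of RNA captured by its poly(A) tail. Tail length was not measured. The members are similar genes, and how reads that match several of them were counted is not given either. Oocyte markers (9 genes such as Zp3 and Gdf9) summed to 9993, 9798 and 9852 CPM in the MII libraries, and blastocyst markers (8 genes such as Cdx2 and Krt8) to 9163, 5775 and 6099 CPM at 90-96hpi. The summed cumulus and granulosa cell markers (7 genes in the tables) were 0.330 to 0.849 CPM in the MII libraries. They were highest at 18-24hpi, at 11.6 to 14.1 CPM. In the genotype set they stayed at or below 19.6 CPM, with reads for 5 of the 7 in ctrl, 6 in KO, 5 in mKO and 3 in pKO.

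Of the 10 genes, 6 lie on chromosome 4, in the order Pramel1, Oog4, Pramel4, Oog3, Oog2 and Pramel5 (RefSeq, GRCm38.p6). Oog3 and Oog2 are 28065 bases apart and transcribed away from each other, Oog3 from the minus and Oog2 from the plus strand. Pramel7 and Pramel6 are neighbours on chromosome 2, 14146 bases apart and also on opposite strands. Oog1 lies on chromosome 12 (chr12:87602665-87608845, plus strand) and Pramel3 on the X chromosome (chrX:135302289-135312636, plus strand). The promoters of all 10 genes (250 bases before to 50 after the start) were in the RefSeq table. The 4 oogenesin promoters are shown because they are alike although Oog1 is on another chromosome. Capitals mark the letters of at least 9 bases that all 4 share, and TATAAA where present.

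Oog1 (chr12:87602415-87602714, plus strand): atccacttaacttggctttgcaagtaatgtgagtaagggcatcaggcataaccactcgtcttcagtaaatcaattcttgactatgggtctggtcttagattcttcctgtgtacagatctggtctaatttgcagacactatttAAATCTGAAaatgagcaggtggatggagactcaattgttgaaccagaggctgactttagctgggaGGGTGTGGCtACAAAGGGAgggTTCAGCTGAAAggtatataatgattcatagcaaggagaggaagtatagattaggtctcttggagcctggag
Oog2 (chr4:144190467-144190766, plus strand): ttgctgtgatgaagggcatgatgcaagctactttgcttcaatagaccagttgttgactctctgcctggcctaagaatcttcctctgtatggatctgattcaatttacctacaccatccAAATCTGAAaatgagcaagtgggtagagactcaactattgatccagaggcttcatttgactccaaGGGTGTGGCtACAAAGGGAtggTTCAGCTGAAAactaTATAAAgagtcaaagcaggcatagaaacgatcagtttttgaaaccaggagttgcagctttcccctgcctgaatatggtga
Oog3 (chr4:144162602-144162901, minus strand): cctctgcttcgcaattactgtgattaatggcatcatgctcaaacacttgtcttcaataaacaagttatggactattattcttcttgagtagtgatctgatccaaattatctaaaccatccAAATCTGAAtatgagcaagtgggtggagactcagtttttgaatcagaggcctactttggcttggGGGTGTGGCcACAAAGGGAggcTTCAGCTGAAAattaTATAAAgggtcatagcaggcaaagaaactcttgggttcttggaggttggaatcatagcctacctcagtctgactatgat
Oog4 (chr4:143450275-143450574, minus strand): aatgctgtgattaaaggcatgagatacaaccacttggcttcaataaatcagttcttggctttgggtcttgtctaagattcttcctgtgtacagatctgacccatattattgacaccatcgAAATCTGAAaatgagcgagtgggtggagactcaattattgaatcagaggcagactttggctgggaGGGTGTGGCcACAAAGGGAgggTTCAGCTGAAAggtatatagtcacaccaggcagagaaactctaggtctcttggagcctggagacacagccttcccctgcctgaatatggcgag

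Aligned pairwise, the oogenesin promoters were identical at 64.8% (Oog1 and Oog2) to 76.7% (Oog2 and Oog4) of columns. The longest run common to all 4, TTCAGCTGAAA, starts 21 bases before the start of Oog1 and 43 to 45 bases before those of the other 3. It was looked for after the sequences had been read. On either strand exact copies of it are in 17 of 32851 RefSeq promoters of this length (0.0517%), and in none of the 6 Pramel members' promoters. Inexact copies were not counted. GGGTGTGGC, next to ACAAAGGGA, begins 43 bases before the start of Oog1 and 65 to 67 bases before the others. These 2 runs are in 1.35% and 0.493% of all promoters, and AAATCTGAA, farther upstream, is in 0.426%. The letters TATAAA (the core of a TATA box) were in the promoters of Oog2 and Oog3, at 30 and 29 bases before the start, and in 13.6% of all promoters. The homeobox letters TAATTG were in Oog3 and Oog4 and in 8% of all promoters, whereas TAATTA was in no member and in 5.29% of all promoters.

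Pramel4 and Pramel5 have the most similar promoters of all pairs (83.4% of columns), which is why they are printed, and they hold the letters GGATTA (capitals), as do 7.06% of all promoters.

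Pramel4 (chr4:144058875-144059174, plus strand): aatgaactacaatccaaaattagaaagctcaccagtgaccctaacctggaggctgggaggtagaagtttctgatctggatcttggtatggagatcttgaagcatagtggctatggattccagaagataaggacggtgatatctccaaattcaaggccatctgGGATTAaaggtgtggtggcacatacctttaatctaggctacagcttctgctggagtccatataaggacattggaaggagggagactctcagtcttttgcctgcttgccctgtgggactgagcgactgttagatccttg
Pramel5 (chr4:144280417-144280716, minus strand): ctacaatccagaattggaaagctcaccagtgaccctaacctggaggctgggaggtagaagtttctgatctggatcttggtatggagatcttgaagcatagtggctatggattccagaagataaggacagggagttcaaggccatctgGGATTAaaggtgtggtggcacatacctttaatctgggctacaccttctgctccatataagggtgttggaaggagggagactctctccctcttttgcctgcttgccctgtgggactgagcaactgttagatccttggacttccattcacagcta

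The neighbours Pramel6 and Pramel7 were identical at 48.2% of columns, below the 50% to 59.8% of the pairs of an oogenesin and a Pramel gene. Of the latter, the pairs with Pramel6 were at 56.5% to 59.8%, and the highest of the others was 54.1% (Oog1 and Pramel3). The Pramel6 promoter holds GGGTGTAGC, ACAAAGGGG and TTCAGAGGAAA in that order. These letters resemble the runs shared by the oogenesins but are not exact copies. The short letters CANNTG (E-box) were in all 10 promoters and in 72.3% of all promoters. CACCC (the core of sites for Kruppel-like factors) was in 7 of the 10, that is in all but Pramel1, Pramel3 and Pramel4, and in 57.5% of all promoters. TTCNNNGAA (the STAT form) was in none of the 10 and in 8.3% of all promoters. All letters were searched on both strands, and E-box matches can overlap the other letters (CAGCTG lies inside TTCAGCTGAAA), as do CACCC matches (GGGTG lies inside GGGTGTGGC). A match is a match of letters only.

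Over development the 10 genes fell into 3 groups by level. Oog1 to Oog4 were high in MII oocytes, were at their highest between 6-12hpi and 18-24hpi, and fell to a few CPM (Oog3 to 82.5 CPM) by 48-54hpi. Pramel1 and Pramel3 were near 0 in oocytes and had their highest means, 13.99 ± 7.39 and 40.4 ± 20.0 CPM, at 30-36hpi. Pramel4 to Pramel7 were near 0 up to 12-18hpi, rose at 18-24hpi and stayed above 200 CPM from 48-54hpi to 90-96hpi. Each library holds whole embryos, so fewer cells with a transcript and less of it per cell cannot be told apart. Unless another tool is named, tests are edgeR's quasi-likelihood test with Benjamini-Hochberg adjustment over all genes tested. Where groups are said not to overlap, in either set, this describes the named libraries only. The share of all genes whose groups do not overlap is not given. Values are shares of a library: the median log2 fold change of all genes tested lay between -0.29 (30-36hpi against 12-18hpi) and 0.33 (12-18hpi against MII), and fold changes are read against it.

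**Figure D1:**
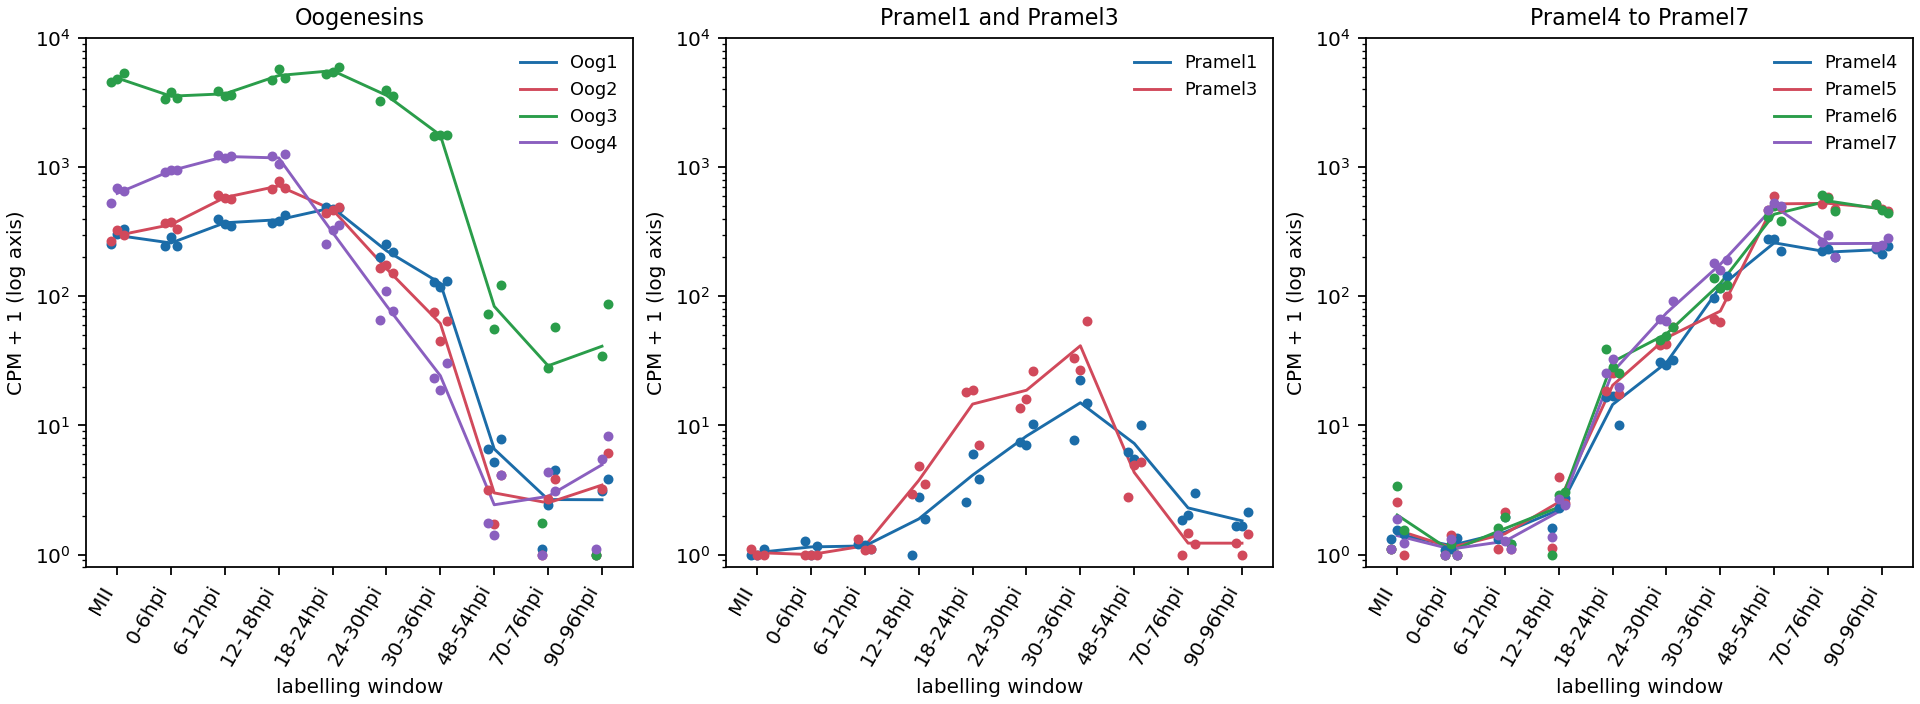
Level of each gene in CPM + 1 (log axis) by labelling window, for the oogenesins (left), Pramel1 and Pramel3 (middle) and Pramel4 to Pramel7 (right); points are single libraries and lines join the means of 3. The oogenesin lines start high and drop after 12-18hpi (Oog2 and Oog4) or 18-24hpi (Oog1 and Oog3), the middle lines peak at 30-36hpi, and the right-hand lines climb from 12-18hpi to 48-54hpi.

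Oog3 was the oogenesin with the highest level per length (values per kilobase are given further on). It measured 4562, 4819.5 and 5319.7 CPM in the MII libraries, 3366, 3825 and 3439 CPM at 0-6hpi and 5286, 5496 and 5963 CPM at 18-24hpi. They then measured 3270.2, 3973 and 3548 CPM at 24-30hpi, 1751, 1759 and 1788 CPM at 30-36hpi and 71.5, 55.1 and 121 CPM at 48-54hpi. All 0-6hpi libraries were below all MII libraries, and each of the last 3 windows was below all libraries of the window before it. With 1 spread for all 10 groups, Oog3 was called lower at 48-54hpi than at 30-36hpi (log2 change -4.42, standard error 0.90, adjusted p = 2.33e-04), a 21.4-fold fall. The earlier steps did not pass (adjusted p = 0.749 for 0-6hpi against MII, 0.545 for 24-30hpi against 18-24hpi and 0.295 for 30-36hpi against 24-30hpi). Fits of only the 2 groups compared called them (log2 fold change -0.51, -0.49 and -0.93; edgeR adjusted p = 8.68e-05, 4.75e-05 and 3.04e-07).

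The spread of Oog3 was wide in the last windows. It measured 0.748, 26.7 and 56.5 CPM at 70-76hpi and 0, 33.7 and 86.4 CPM at 90-96hpi, with replicate 1 lowest in both. The summed oocyte markers were 29.3, 68.9 and 67.9 CPM and 2.88, 28.8 and 70.4 CPM in the same libraries, again lowest in replicate 1. Their part in the level of Oog3 was not tested. In a fit without these 2 windows, an alternative added after the data were seen, Oog3 was lower at 0-6hpi than in MII oocytes (log2 fold change -0.49, edgeR adjusted p = 0.0432) and at 30-36hpi than at 24-30hpi (log2 fold change -0.85, adjusted p = 2.41e-04), and the step to 24-30hpi was not called (adjusted p = 0.0575).

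Oog4 was highest at 6-12hpi and 12-18hpi, which overlapped. It measured 529.7, 693 and 653 CPM in the MII libraries, 918, 942 and 954 CPM at 0-6hpi and 1231, 1175 and 1219 CPM at 6-12hpi. All libraries of each window were above those of the one before, although neither step was called (adjusted p = 0.361 and 0.731). At 12-18hpi it was at 1208, 1053 and 1271 CPM and at 18-24hpi at 253, 323 and 355 CPM, a 3.79-fold fall (log2 change -1.92, standard error 0.42, adjusted p = 0.00109). It was the 1 member called lower at this step. It fell again at 24-30hpi, to 83.5 ± 23.3 CPM (log2 change -1.90, standard error 0.43, adjusted p = 9.96e-04), and at 30-36hpi, to 23.3 ± 5.95 CPM (log2 change -1.85, standard error 0.44, adjusted p = 0.00154). At 48-54hpi it fell to 1.43 ± 1.48 CPM, 16.6-fold below 30-36hpi (adjusted p = 1.14e-05).

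Oog2 was highest at 12-18hpi. It measured 265, 323 and 297 CPM in the MII libraries, against 674, 782 and 687 CPM at 12-18hpi, a 2.42-fold rise with no overlap (log2 change 1.28, standard error 0.35, adjusted p = 0.00510). At 18-24hpi they measured 444, 466 and 491 CPM, below all 12-18hpi libraries though not called (adjusted p = 0.191). Oog2 then fell to 164, 174 and 151 CPM at 24-30hpi (log2 change -1.52, standard error 0.35, adjusted p = 0.00129) and to 74.3, 44.5 and 62.9 CPM at 30-36hpi (log2 change -1.43, standard error 0.36, adjusted p = 0.00220). At 48-54hpi it was at 2.15, 0.729 and 3.13 CPM, 30.2-fold lower (adjusted p = 1.92e-08), the largest of the 4 oogenesin folds at that step.

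Oog1 was highest at 18-24hpi. It measured 253, 300.2 and 332 CPM in the MII libraries, against 493, 475 and 483 CPM at 18-24hpi. All 18-24hpi libraries were above every library of the other windows, and the steps up to it were not called (adjusted p from 0.347 to 0.919). Oog1 fell to 199.8, 255 and 218 CPM at 24-30hpi (log2 change -1.11, standard error 0.28, adjusted p = 0.00256) and to 127, 118 and 131 CPM at 30-36hpi (log2 change -0.84, standard error 0.28, adjusted p = 0.0170). It fell 22.5-fold further to 5.62, 4.16 and 6.92 CPM at 48-54hpi (adjusted p = 1.08e-10) and to 0.107, 1.40 and 3.50 CPM at 70-76hpi (adjusted p = 0.00584), where replicate 1 was again lowest. The summed oocyte markers were 6756, 6793 and 7553 CPM at 18-24hpi, 3494, 3289.6 and 3033 CPM at 24-30hpi, 1079, 1113 and 1206 CPM at 30-36hpi and 169, 159.9 and 179 CPM at 48-54hpi. They were thus lower in the same steps, and their part in the fall of the oogenesins was not tested.

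Pramel1 and Pramel3 had most of their reads between 18-24hpi and 48-54hpi. Pramel3 had 1 read in the 3 MII libraries together and none in those of 0-6hpi. It measured 0.310, 0.0946 and 0.105 CPM at 6-12hpi, 1.93, 3.82 and 2.51 CPM at 12-18hpi and 17.0, 17.9 and 6.00 CPM at 18-24hpi. These steps did not overlap and were called (log2 change 3.93, standard error 0.76, adjusted p = 3.52e-04, on 71 against 5 reads, then log2 change 2.31, standard error 0.50, adjusted p = 4.07e-04). It was highest at 30-36hpi, at 32.3, 25.7 and 63.2 CPM, 2.27-fold above 24-30hpi (adjusted p = 0.0277). It fell 12.2-fold to 1.78, 3.96 and 4.24 CPM at 48-54hpi (log2 change -3.60, standard error 0.50, adjusted p = 1.84e-07) and 13.4-fold further to 0, 0.467 and 0.212 CPM at 70-76hpi (adjusted p = 4.57e-05).

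Pramel1 had few reads. It measured 0, 1.79 and 0.873 CPM at 12-18hpi, 1.54, 4.96 and 2.88 CPM at 18-24hpi and 6.64, 21.4 and 13.9 CPM at 30-36hpi. The 30-36hpi libraries were above all 12-18hpi libraries, 15.6-fold by the fit (log2 change 3.96, standard error 0.66, adjusted p = 2.23e-06) and differed widely among themselves, with replicate 1 lowest. At 48-54hpi it measured 5.24, 4.48 and 9.04 CPM, which overlapped 30-36hpi and was not called (adjusted p = 0.0702), and at 70-76hpi 0.855, 1.03 and 2.01 CPM, which was called (adjusted p = 0.00322).

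Pramel4, Pramel5, Pramel6 and Pramel7 rose together at 18-24hpi. Pramel7 measured 0.361, 1.67 and 1.42 CPM at 12-18hpi and 24.3, 31.5 and 19.0 CPM at 18-24hpi (log2 change 4.41, standard error 0.32, adjusted p = 6.15e-13). Pramel6 measured 0, 1.91 and 2.07 and then 38.3, 27.5 and 24.4 CPM (log2 change 4.47, standard error 0.44, adjusted p = 1.19e-08). Pramel5 measured 0.120, 2.98 and 1.53 and then 17.5, 24.4 and 16.4 CPM (log2 change 3.64, standard error 0.51, adjusted p = 5.18e-06). The groups did not overlap for any of the 4 genes, and the rises were 10.9-fold (Pramel4) to 22.1-fold (Pramel6). Pramel4 measured 0.602, 1.31 and 1.75 and then 15.5, 16.0 and 9.01 CPM (log2 change 3.44, standard error 0.29, adjusted p = 1.31e-11). In the same libraries the summed 2-cell embryo markers (6 genes such as Zscan4c) were 234, 361 and 317 CPM at 12-18hpi and 1909, 1914 and 1634 CPM at 18-24hpi, and their part was not tested.

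All 4 rose again at 24-30hpi, by 1.67-fold (Pramel6) to 2.94-fold (Pramel7). From 24-30hpi to 30-36hpi Pramel4 had the largest fold of the 4, from 29.8, 28.2 and 31 to 95.4, 114 and 144 CPM (log2 change 1.99, standard error 0.19, adjusted p = 1.72e-10). Pramel6 and Pramel7 rose 2.49-fold and 2.40-fold. Pramel5, at 41.3, 41.7 and 57.2 and then 65.4, 62.3 and 99.8 CPM, did not overlap but was not called (adjusted p = 0.0861). At 48-54hpi Pramel5 had the largest fold of the 4, at 468, 599 and 488 CPM (log2 change 2.77, standard error 0.34, adjusted p = 2.56e-07), against 2.20-fold for Pramel4, 3.45-fold for Pramel6 and 2.82-fold for Pramel7. At 30-36hpi Pramel5 stood at 14.5% of its highest mean, Pramel6 at 22.8%, Pramel7 at 35.5% and Pramel4 at 45.5%. Whether these percentages differ between the genes was not tested.

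After 48-54hpi Pramel7 was the 1 gene of these 4 that was called. It fell from 466, 528 and 496 CPM at 48-54hpi to 264, 299 and 201 CPM at 70-76hpi, 1.95-fold and with no overlap (log2 change -0.96, standard error 0.20, adjusted p = 1.59e-04). It was at 240.1, 248 and 279.6 CPM at 90-96hpi. Pramel4, Pramel5 and Pramel6 overlapped between 48-54hpi and 70-76hpi and were not called (log2 fold changes -0.24, 0.01 and 0.34, SE 0.18 to 0.32, adjusted p = 0.304, 1.00 and 0.338), and the difference between genes was not tested. At 90-96hpi they measured 229 ± 15.2, 480.4 ± 30.3 and 472 ± 38.2 CPM.

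**Figure D2:**
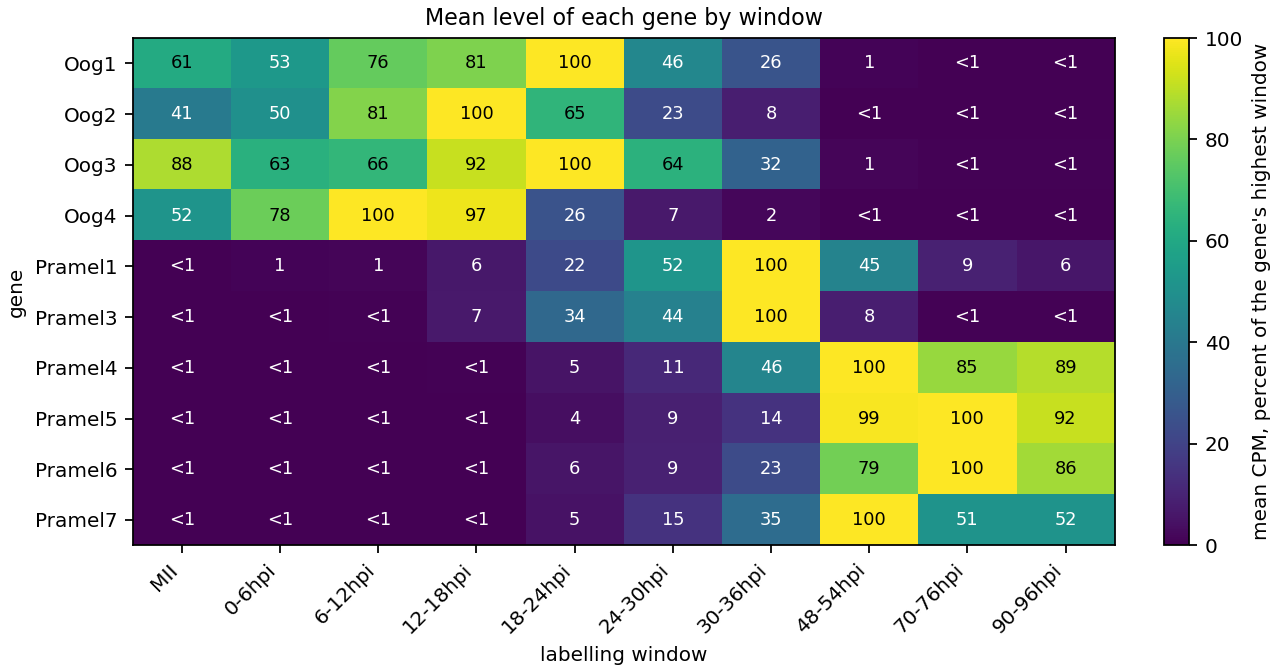
Mean CPM of each gene (rows) in each labelling window (columns) as a percent of that gene's highest window mean, by colour and number. Each oogenesin row is brightest in 1 window between 6-12hpi and 18-24hpi, Pramel1 and Pramel3 at 30-36hpi, and Pramel4 to Pramel7 from 48-54hpi on, with Pramel7 at 51.3% of its highest mean at 70-76hpi.

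Before 18-24hpi the counts of Pramel4 to Pramel7 were low, with 2 to 40 reads per gene and window. From MII to 0-6hpi 1 of the 10 members was called, against 12.9% of all genes higher and 8.28% lower: Pramel6, lower, on 28 reads in the MII libraries (0.106, 2.42 and 0.552 CPM) against 2 reads at 0-6hpi, so that no fold is given. MII replicate 2 held most of those reads, and the call was lost without it. The call was also lost without 0-6hpi replicate 1 or replicate 3. No member was called from 0-6hpi to 6-12hpi (edgeR; 4.73% of all genes higher and 2.93% lower), with 2 at an unadjusted p below 0.05 and 1 called by DESeq2. From 6-12hpi to 12-18hpi 2 members rose, Pramel3 and Pramel7 (7.11% of all genes higher and 6.09% lower). Pramel7 had 8 and then 30 reads (log2 change 2.06, standard error 0.66, adjusted p = 0.0320), its groups overlapped, and leaving out single libraries left 1 to 4 members called.

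From 12-18hpi to 18-24hpi 6 members rose, all 6 Pramel genes, and 1 fell, where 18.1% of all genes were called higher and 14.9% lower. From 18-24hpi to 24-30hpi 4 rose and 3 fell (21% of all genes higher and 24.4% lower), and from 24-30hpi to 30-36hpi again 4 rose and 3 fell (21% of all genes higher and 29% lower). In both steps Oog1, Oog2 and Oog4 were the members that fell. From 30-36hpi to 48-54hpi 4 rose (Pramel4 to Pramel7) and 5 fell, with 28.7% of all genes higher and 33.3% lower. From 48-54hpi to 70-76hpi 4 fell and none rose (21.6% of all genes higher and 21.8% lower), namely Oog1, Pramel1, Pramel3 and Pramel7. From 70-76hpi to 90-96hpi none was called by edgeR or DESeq2 and none had an unadjusted p below 0.05, with 20.1% of all genes higher and 19.5% lower.

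Over longer spans, 5 members were higher at 12-18hpi than in MII oocytes (27.9% of all genes higher and 15.9% lower): Oog2, Pramel1, Pramel3, Pramel4 and Pramel7. The calls of Pramel1 and Pramel3 rest on 23 and 71 reads against 1 read each, and leaving out single libraries left 2 to 6 members called, with the lowest count without 12-18hpi replicate 2. From 12-18hpi to 30-36hpi all 6 Pramel genes rose and Oog1, Oog2 and Oog4 fell, with 33.3% of all genes higher and 41% lower. The largest of these folds were 150.3-fold for Pramel7 (log2 change 7.23, standard error 0.31, adjusted p = 2.56e-20) upward and 50.8-fold for Oog4 (log2 change -5.67, standard error 0.50, adjusted p = 1.47e-09) downward. Between MII and 90-96hpi the 4 oogenesins fell and 5 Pramel genes rose, all but Pramel3, with 42.6% of all genes higher and 38.4% lower.

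The all-gene shares depend on the scaling. Of all genes called, the percent that was higher moved by over 10 points in 6 of these comparisons under total count scaling. It went from 60.9% to 78.3% for 0-6hpi against MII (49.4% with DESeq2 size factors), from 53.8% to 43.5% for 12-18hpi against 6-12hpi and from 46.3% to 69.0% for 24-30hpi against 18-24hpi. It went from 46.2% to 32.5% for 48-54hpi against 30-36hpi, from 49.8% to 61.7% for 70-76hpi against 48-54hpi and from 44.8% to 55.4% for 30-36hpi against 12-18hpi. No called member changed direction under either scaling.

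Per kilobase of the authors' gene length, which allows genes to be compared, Oog3 stood at 2628 ± 207 CPM per kb in MII oocytes. Oog4 was at 316 ± 42.9, Oog2 at 154 ± 15.2 and Oog1 at 120.5 ± 16.2 CPM per kb there. At 70-76hpi Pramel6 was at 307 ± 43.9, Pramel5 at 244 ± 26.2, Pramel7 at 137 ± 26.7 and Pramel4 at 91.3 ± 6.50 CPM per kb. The 10 members together took 0.447% to 0.685% of all counted reads in the libraries up to 24-30hpi, 0.307% to 0.332% at 30-36hpi and 0.154% to 0.184% from 48-54hpi on. The summed level of the 4 oogenesins was between 1939 and 2011 CPM at 30-36hpi, when that of Pramel4 to Pramel7 was between 449 and 555 CPM.

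Each gene's order of windows followed its group. For Oog3 the highest windows (18-24hpi, 12-18hpi and MII) overlapped from one to the next, as did 6-12hpi, 24-30hpi and 0-6hpi below them. For Pramel4, Pramel5 and Pramel6 the 3 windows from 48-54hpi on overlapped, and from 30-36hpi back to 12-18hpi each window lay below all libraries of the next. The correlation of log2(mean CPM + 1) over the 10 window means was r = 0.907 to 0.997 between oogenesins and 0.984 to 0.996 between Pramel4, Pramel5, Pramel6 and Pramel7. Between an oogenesin and one of these 4 it was -0.972 to -0.748. These values describe the 10 means, which share libraries.

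Outside the PRAME family, the genes with the window pattern most like that of a member were found by the same correlation among 9032 genes with at least 20 CPM in their highest window. For Oog1 they were Nlrp9c (r = 0.997), Gda (r = 0.997) and Glis3 (r = 0.996), and for Oog2 Syt16 (r = 0.997), Ak5 (r = 0.997) and Stk36 (r = 0.997). For Oog3 they were Ermp1 (r = 1.00), Dnah11 (r = 0.998) and Omt2b (r = 0.998). For Oog4 they were Nobox (r = 0.998), Oas1h (r = 0.998) and Gramd1c (r = 0.997), of which Nobox encodes an oocyte homeobox factor. Nlrp9c is an oocyte gene of the NLRP family. For Pramel3 the 3 genes were Papolb (r = 0.979), Fem1c (r = 0.978) and Fbxo32 (r = 0.972). For Pramel4 they were Elovl6 (r = 0.999), Acer2 (r = 0.998) and Nme2 (r = 0.996), of which Elovl6 encodes a fatty acid elongase. Pramel5 and Pramel6 had ribosomal protein genes among theirs: Cdc5l (r = 0.996), Rps3 (r = 0.995) and Rps27a (r = 0.995) for Pramel5, and Rps19 (r = 0.997), Cd63 (r = 0.996) and Rpl23a (r = 0.996) for Pramel6. For Pramel7 they were Syncrip (r = 0.998), Fam76a (r = 0.997) and Xpot (r = 0.995). Pramel1 stayed under the level needed. These choices depend on the use of means: over the 30 single libraries Ermp1 ranked 129 (r = 0.947) and Dnah11 135 (r = 0.946) for Oog3, whereas Omt2b ranked 1. For Oog2, Syt16, Ak5 and Stk36 ranked 102, 96 and 51 over the single libraries. For Pramel3, Fbxo32 ranked 31 (r = 0.903).

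Other PRAME family genes, 15 tested of 18 sought, mostly rose up to 12-18hpi and fell later. From MII to 12-18hpi 9 rose and none fell (median log2 fold change 1.75, all genes 0.33; 27.9% of all genes higher and 15.9% lower), and from 30-36hpi to 48-54hpi none rose and 10 fell (median -2.56, all genes -0.19; 28.7% of all genes higher and 33.3% lower). Pramef20 rose from 25.4 to 139 CPM (log2 change 2.46, standard error 0.24, adjusted p = 1.05e-10) up to 12-18hpi and fell from 139 to 48.0 CPM (log2 change -1.54, standard error 0.23, adjusted p = 1.38e-06) at 18-24hpi. C87977 rose from 349 to 1173 CPM (log2 change 1.75, standard error 0.24, adjusted p = 1.36e-06) up to 12-18hpi. At 18-24hpi 3 of the 15 rose and 6 fell (median -0.50, all genes 0.00), where 18.1% of all genes were called higher and 14.9% lower. The 3 that rose were Pramef25, from 9.30 to 78.5 CPM (log2 change 3.07, standard error 0.56, adjusted p = 9.15e-05), Pramef6, from 2.13 to 18.5 CPM (log2 change 3.12, standard error 0.70, adjusted p = 6.11e-04), and BC080695, from 9.09 to 55.2 CPM (log2 change 2.60, standard error 0.70, adjusted p = 0.00595); Pramef6 and BC080695 are named after their values were seen.

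The CUL2 ligase genes, Uhrf1 and Dnmt1 were described in the same way. Of 6 genes tested (Cul2, Elob, Eloc, Rbx1, Uhrf1 and Dnmt1), 3 rose and 2 fell from 30-36hpi to 48-54hpi (median log2 fold change 0.40, all genes -0.19), where 28.7% and 33.3% of all genes were called higher and lower. Cul2, the ligase scaffold, rose from 101 to 216 CPM (log2 change 1.10, standard error 0.18, adjusted p = 2.55e-06). Eloc, an adaptor between scaffold and receptor, rose from 361 to 1005 CPM (log2 change 1.48, standard error 0.12, adjusted p = 3.30e-13). Uhrf1, whose protein is the substrate, fell from 35.6 to 16.3 CPM (log2 change -1.12, standard error 0.19, adjusted p = 5.80e-06), and had already fallen from 341 to 167 CPM (log2 change -1.03, standard error 0.18, adjusted p = 1.32e-05) from 12-18hpi to 18-24hpi. It then rose from 16.3 to 44.8 CPM (log2 change 1.45, standard error 0.19, adjusted p = 1.25e-07) at 70-76hpi and to 69.8 CPM at 90-96hpi (adjusted p = 0.00460). From 6-12hpi to 12-18hpi 2 of the 6 genes rose and 1 fell, where 7.11% of all genes were called higher and 6.09% lower. The gene that fell was Dnmt1, from 796 to 205 CPM (log2 change -1.96, standard error 0.16, adjusted p = 1.33e-11). Dnmt1 was at 56.6 CPM at 18-24hpi.

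Of 9 LIF and STAT3 pathway genes, 2 rose and 5 fell from 30-36hpi to 48-54hpi (median -1.18, all genes -0.19; 28.7% of all genes higher and 33.3% lower). Tfcp2l1, a pluripotency factor downstream of STAT3, rose from 6.29 to 37.8 CPM (log2 change 2.58, standard error 0.31, adjusted p = 1.75e-08), and Stat3 fell from 33.8 to 13.5 CPM (log2 change -1.33, standard error 0.17, adjusted p = 2.18e-08). From 48-54hpi to 70-76hpi 3 rose and 3 fell (median 0.90, all genes 0.00), where 21.6% of all genes were called higher and 21.8% lower. From 70-76hpi to 90-96hpi 5 rose and none fell (median 1.23, all genes 0.07), where 20.1% of all genes were called higher and 19.5% lower. Stat3 rose in both steps, to 31.6 CPM (adjusted p = 2.54e-07) and to 83.8 CPM (adjusted p = 7.34e-09).

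The genotype libraries ask whether these genes change when the zinc finger factor KLF17 is lost. Klf17 counts did not follow the labels: they were 596, 805 and 746 CPM in ctrl, 673, 603 and 728 CPM in KO, 359, 845 and 794 CPM in mKO and 812 and 1015 CPM in pKO. The libraries labelled KO overlapped the controls (log2 fold change -0.10, SE 0.30, edgeR adjusted p = 0.869). Which part of the gene was altered is not given in the sources used here, so the level of the transcript does not check the labels, and KO, mKO and pKO below mean the libraries so labelled. The 3 contrasts with ctrl share the control libraries. Nothing in the labels says that replicates came from separate matings or days, so p-values measure only the spread between these libraries. In these libraries Oog3 was at 3677 ± 1163 CPM in ctrl and Pramel4 to Pramel7 together at 432 to 741 CPM.

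In the libraries labelled KO the 4 late PRAME-like genes were lower and the oogenesins lay higher. Pramel4, Pramel5, Pramel6 and Pramel7 fell and no member rose, that is 4 of 10 members against 6.31% of all genes called lower and 1.82% called higher. Pramel7 measured 268, 148 and 163 CPM in ctrl and 64.1, 87.0 and 62.5 CPM in KO, 2.71-fold lower (log2 change -1.44, standard error 0.34, adjusted p = 0.0183). Pramel4 measured 145, 84.5 and 107 CPM and 27.1, 35.5 and 41.8 CPM, 3.21-fold lower (log2 change -1.68, standard error 0.43, adjusted p = 0.0270). Every KO library was below every control library for both genes.

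Pramel5 measured 154, 67.7 and 83.7 CPM in ctrl and 15.0, 37.5 and 50.4 CPM in KO, 2.96-fold lower (log2 change -1.57, standard error 0.44, adjusted p = 0.0396). Pramel6 measured 175, 132 and 149.9 CPM and 49.6, 66.7 and 99.1 CPM, 2.12-fold lower (log2 change -1.08, standard error 0.30, adjusted p = 0.0362). Here too no KO library reached the lowest control. The 4 calls are close to the threshold: leaving out any 1 library of either group left 0 or 1 member called, 1 without ctrl replicate 2 or KO replicate 3 and 0 without ctrl replicate 1 or 3 or KO replicate 1 or 2. The adjusted p then ranged from 0.0433 to 0.0768 for Pramel7 and from 0.0502 to 0.145 for Pramel5, with all directions kept.

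Each oogenesin had a higher mean in the libraries labelled KO, and none passed the test. Oog1 measured 326, 243 and 273 CPM in ctrl and 543, 634 and 414 CPM in KO, with no overlap (log2 change 0.92, standard error 0.29, adjusted p = 0.0548). Oog2 measured 150.5, 109.7 and 119.8 CPM and 243, 231 and 199.7 CPM, also with no overlap (log2 change 0.83, standard error 0.28, adjusted p = 0.0706). DESeq2 called both (adjusted p = 0.0134 and 0.0169), as did edgeR without mKO replicate 1 (adjusted p = 0.0122 and 0.0179), an alternative added after the data were seen. The fit of only the 2 groups called Oog1, Oog2 and Oog4 (adjusted p = 0.00762, 0.0114 and 0.0434). Oog3 (5019, 2971 and 3039 CPM, then 7658, 6545 and 3917 CPM) and Oog4 (81.2, 53.4 and 63.8 CPM, then 139, 124 and 79.6 CPM) overlapped (adjusted p = 0.185 and 0.133). The summed oocyte markers were 2739, 1939 and 1983 CPM in ctrl and 3647, 4089 and 3545 CPM in KO, with all 9 detected and no overlap, and the summed 2-cell embryo markers were 1110.3, 749 and 921 CPM and 1189.8, 1136 and 1140.5 CPM. Their part in the levels of the members was not tested. The blastocyst markers summed to 51.0, 37.2 and 42.1 CPM in ctrl, with 7 of 8 detected, and to 67.6, 150.0 and 106 CPM in KO, with 8 detected and no overlap. In the development set the same list summed to 173, 180 and 191 CPM in MII oocytes, above every KO library. It summed to 46.5, 49.4 and 61.1 CPM at 24-30hpi and to 30.9, 25.2 and 17.3 CPM at 30-36hpi, below every KO library. What the sums reflect in KO was not tested.

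Pramel1 and Pramel3 overlapped between ctrl and KO. Pramel3 measured 101, 57.5 and 71.4 CPM and 90.1, 74.9 and 65.3 CPM (log2 change 0.00, standard error 0.40, adjusted p = 0.995). Pramel1 measured 4.33, 9.03 and 16.4 CPM and 12.0, 10.9 and 7.87 CPM (log2 change 0.05, standard error 0.53, adjusted p = 0.967).

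**Figure D3:**
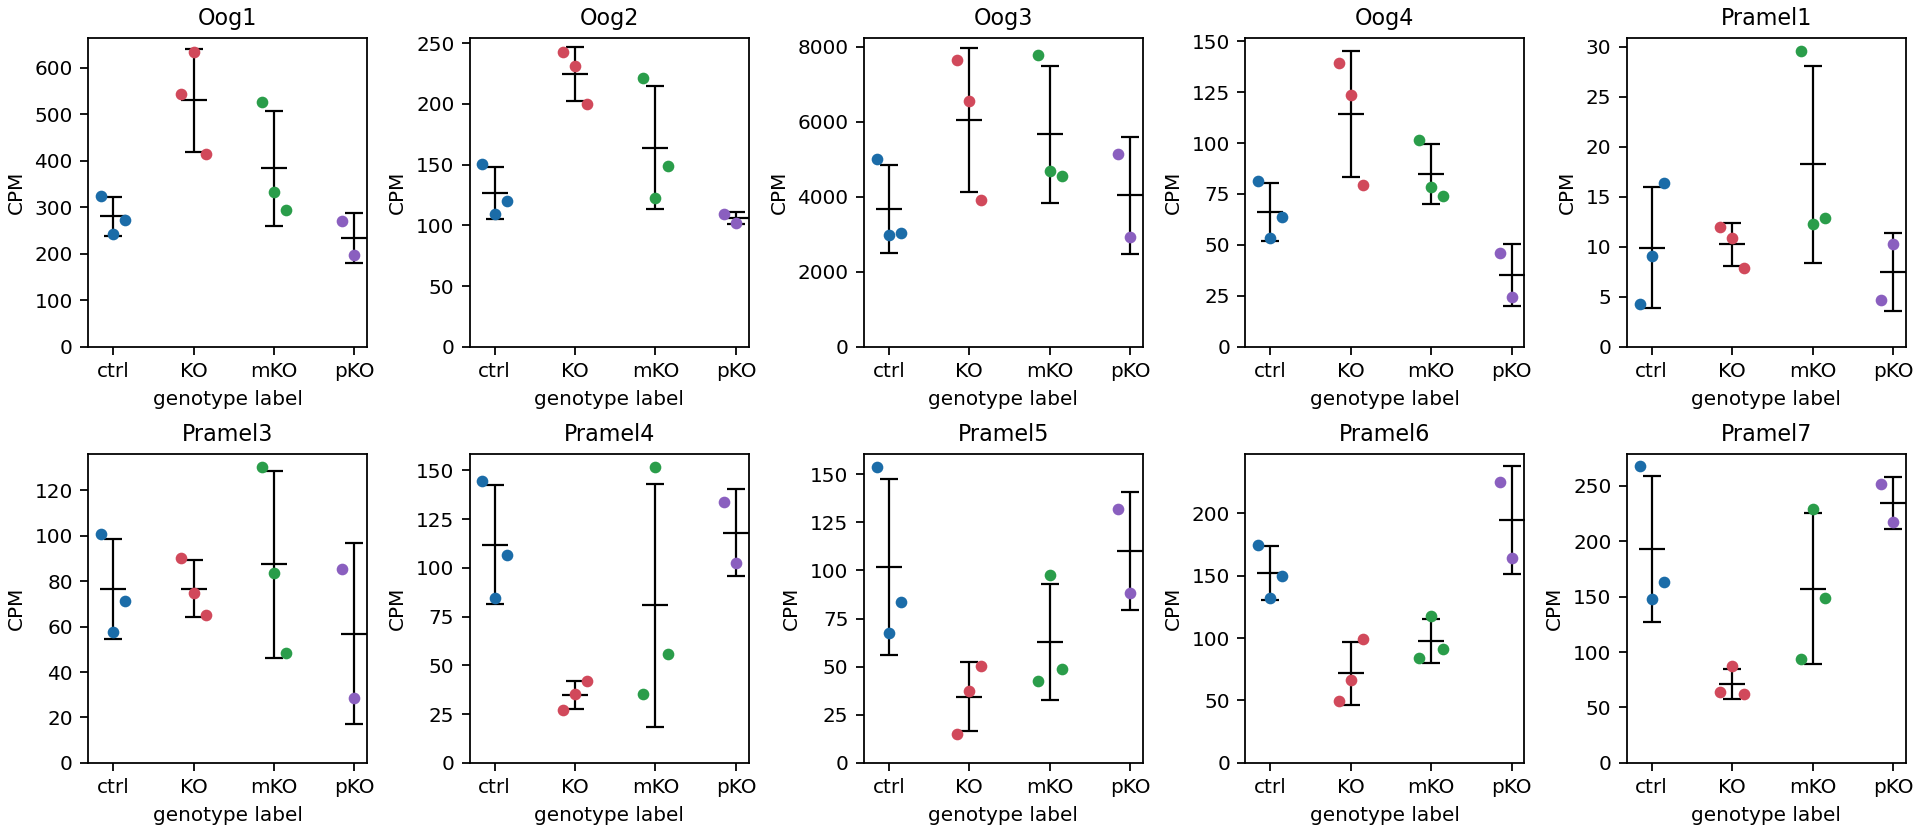
CPM of each gene by genotype label, with one panel per gene, points for single libraries and black bars for mean ± SD (3 libraries, 2 for pKO). In the panels of Pramel4 to Pramel7 all 3 KO points lie below all 3 ctrl points, and mKO replicate 1 lies near the KO points. Another mKO library also lies within the KO range for Pramel5 (48.6 CPM) and for Pramel6 (91.5 CPM).

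With only the maternal or only the paternal label, no member was called. For mKO against ctrl, 0% of all genes were called by edgeR, 1 member had an unadjusted p below 0.05 (Pramel6) and DESeq2 called no member. For pKO against ctrl these figures were 0% of genes, 1 member (Oog4) and none. Pramel6 measured 84.3, 117 and 91.5 CPM in mKO, all below the controls (log2 change -0.64, standard error 0.30, adjusted p = 0.668). Pramel7 measured 93.3, 229 and 149 CPM in mKO (log2 change -0.30, standard error 0.33, adjusted p = 0.850) and 251 and 218 CPM in pKO (log2 change 0.28, standard error 0.37, adjusted p = 1.00).

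The mKO group was uneven. Replicate 1 had the lowest Klf17, Pramel4, Pramel5, Pramel6 and Pramel7 and the highest Oog1, Oog2, Oog3 and Oog4 of the 3 mKO libraries. Oog1 was at 526, 333 and 295 CPM and Pramel4 at 35.2, 152 and 55.6 CPM. High oogenesins in replicate 1 were not particular to mKO. Replicate 1 was also highest for Oog2, Oog3 and Oog4 in ctrl and in KO. Oog3 was at 5019, 2971 and 3039 CPM in ctrl and 7658, 6545 and 3917 CPM in KO. Pramel4 to Pramel7 were highest in replicate 1 of ctrl, whereas Pramel4, Pramel5 and Pramel6 were lowest in replicate 1 of KO. The summed oocyte markers of mKO were 4022, 2374 and 3376 CPM, also highest in replicate 1, and their part was not tested. Without this library the log2 fold change of Pramel7 in mKO against ctrl was 0.03 and that of Oog1 0.22, against -0.30 and 0.45 with it.

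**Figure D4:**
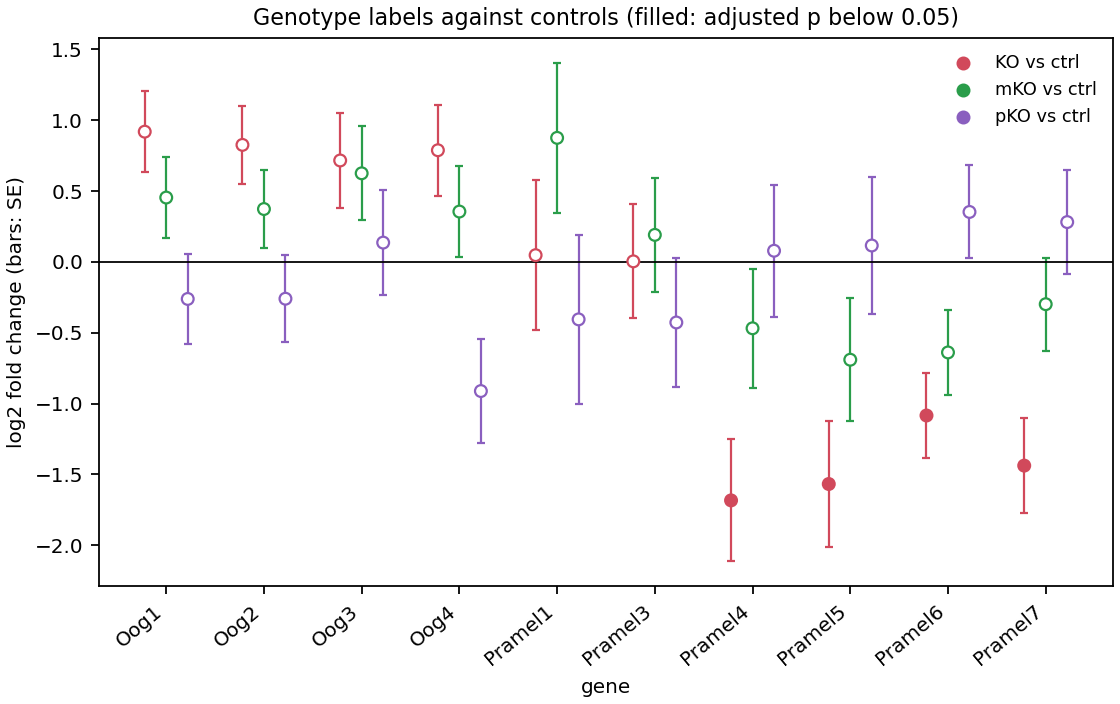
Log2 fold change of each gene for KO, mKO and pKO against ctrl, with bars of 1 SE; filled points passed an adjusted p of 0.05. The filled points are the 4 of Pramel4 to Pramel7 in KO, and the oogenesin points for KO lie above 0 but are open.

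The libraries labelled KO were also set against those with a single parental label. Between KO and mKO no member was called (0% of all genes by edgeR, 2 members at an unadjusted p below 0.05, none by DESeq2). Between KO and pKO, 3 members were higher (Oog1, Oog2 and Oog4) and 4 lower (Pramel4 to Pramel7), where 2.83% of all genes were called higher and 9.67% lower (22.6% of calls higher, and 33.3% under total count scaling). This comparison uses the KO libraries of the contrast with ctrl. Oog4 was at 45.9 and 24.5 CPM in pKO, below all KO libraries (log2 change 1.70, standard error 0.38, adjusted p = 0.0111), and Pramel7 was 3.29-fold lower in KO (log2 change -1.72, standard error 0.36, adjusted p = 0.00867). Leaving out KO replicate 1 or 2 or pKO replicate 1 or 2 left 2 members called, and leaving out KO replicate 3 left 6. With 1 pKO library left, that library is assumed to vary like the other groups. The summed oocyte markers of pKO were 2389 and 1912 CPM, below the KO libraries, and their part was not tested.

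Among the 15 other PRAME family genes tested, none rose and 1 fell in KO against ctrl (median log2 fold change 0.38, all genes 0.05), where 6.31% of all genes were called lower, so the count is near that of all genes. It was D5Ertd577e, which fell from 95.4 to 33.1 CPM (log2 change -1.53, standard error 0.31, adjusted p = 0.0118). AA792892 went from 18.2 to 35.5 CPM (log2 change 0.97, standard error 0.36, adjusted p = 0.106) and C87977 went from 95.7 to 165 CPM (log2 change 0.79, standard error 0.35, adjusted p = 0.160), and neither passed. Of the 6 ligase and UHRF1 genes the smallest adjusted p was that of Cul2, which went from 65.1 to 41.9 CPM (log2 change -0.64, standard error 0.28, adjusted p = 0.160). The median of the 6 was -0.44, and Uhrf1 had a log2 fold change of 0.38 (SE 0.29, adjusted p = 0.437). Of the 9 LIF and STAT3 pathway genes none rose and 1 fell (median 0.38, all genes 0.05), where 1.82% of all genes were called higher and 6.31% lower. A count of 1 in 9 is not read as a result about the pathway. The gene was Socs3, a feedback inhibitor induced by STAT3, which fell from 30.8 to 4.68 CPM (log2 change -2.71, standard error 0.63, adjusted p = 0.0180). Jak1, the kinase upstream of STAT3, went from 53.6 to 103 CPM (log2 change 0.94, standard error 0.30, adjusted p = 0.0573) and was not called.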

How the data were processed

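Gene read counts deposited by the authors were used, 1 table for the 10 developmental groups (24552 records, 30 libraries) and 1 for the 4 genotypes (22911 genes, 11 libraries). Per the file headers, the values are read counts and the tables give a gene length. In 1 column (90-96hpi replicate 3) the deposited values were read as estimated counts, made by the authors in an unstated way, and rounded, since a damaged record held a fraction, and that record (Nyx) was left out. Trim Galore 0.6.10, STAR 2.7.10a, SAMtools 1.12 and the builds mm10 and GRCm38 are named per the submitters' processing notes, with no role given. The counting tool, its use of strand and the treatment of T-to-C reads are not given in the sources used here. Libraries were made with a modified Smart-seq2 protocol and oligo-dT after alkylation with iodoacetamide, per the labels' protocols.

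Columns were matched to samples by their names; the columns named WT in the genotype table are the ctrl libraries. Genes were kept by filterByExpr (minimum count 10, minimum total 15), which left 16234 and 16694 genes, scaled by TMM and tested with edgeR 4.0.16 (robust quasi-likelihood F-test, 1 fit per table over all its groups, R 4.3.3). Calls had a two-sided Benjamini-Hochberg adjusted p below 0.05 over all genes tested. SE is the absolute log2 fold change divided by the square root of F. No fold is given against a group with 3 reads or fewer. Likeness used log2(mean CPM + 1). DESeq2 1.42.0 size factors and Wald test, total count scaling, no low-count filter, fits of only the 2 groups, a replicate block and leaving out each library were alternatives; 2 more were added after the data were seen. Sequences are from RefSeq (GRCm38.p6), aligned with Biopython 1.88; figures were drawn with matplotlib 3.10.9. The procedure was tested on simulated data. Counts of the embryo-number table and the chromatin libraries were not used here.

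The genes and lists were chosen with earlier results of these data known. Named genes are the 10 members, Klf17, up to 4 genes of each list with the smallest adjusted p in a comparison, and, for members with at least 20 CPM in their highest window, the 3 genes outside the family with the highest likeness.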

Additional observations from a re-analysis of the deposited data

How the results depend on the processing

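No fold change that was called changed direction. With other settings 454 of these fold changes kept their call and 13 lost it, and with a library left out 358 kept it and 72 lost it. Counts of members called that moved by more than 1.5 times were as follows. Except where stated, they come without the share of all genes called under the same setting. They are therefore not read as results about the members. Without the low-count filter they were 4 for 0-6hpi against MII (1 as reported), 3 for 6-12hpi against 0-6hpi (0), 4 for 12-18hpi against 6-12hpi (2), 2 for 90-96hpi against 70-76hpi (0) and 2 for KO against mKO (0). With fits of only the 2 groups they were 3 for 0-6hpi against MII, 3 for 6-12hpi against 0-6hpi and 7 for KO against ctrl (4). Of all genes, those fits called 4443, 3577 and 3166, against 3441, 1243 and 1358 as reported. DESeq2 called 1 for 6-12hpi against 0-6hpi, 4 for 12-18hpi against 6-12hpi and 4 for 24-30hpi against 18-24hpi (7). In a fit without 70-76hpi and 90-96hpi, chosen after seeing the data, 3 were called for 0-6hpi against MII and 2 for 6-12hpi against 0-6hpi. Total count scaling ended the calls of Pramel5 (adjusted p = 0.0519) and Pramel6 (adjusted p = 0.0511) in KO against ctrl.

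With 1 library left out, the counts ranged from 0 to 2 for 0-6hpi against MII, 1 to 4 for 12-18hpi against 6-12hpi, 0 to 1 for 90-96hpi against 70-76hpi (1 without 90-96hpi replicate 1), 2 to 6 for 12-18hpi against MII, 0 to 6 for KO against ctrl, 0 to 2 for KO against mKO (2 without mKO replicate 1) and 2 to 7 for KO against pKO. The 6 for KO against ctrl was without mKO replicate 1, chosen after seeing the data.

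Replicate numbers share no stated source, and the correlations of same-numbered libraries did not all exceed 0.1 in any comparison with 3 pairs. For KO against ctrl they were 0.082, -0.0289 and 0.0979, with 2 of 6 libraries correlating best with their own number. For mKO against ctrl they were 0.231, 0.207 and -0.00115 (4 of 6 libraries), and for pKO against ctrl 0.223 and 0.210. For 30-36hpi against 24-30hpi 5 of 6 libraries correlated best with their own number, at 0.00998, 0.0307 and 0.0114. A source shared by same-numbered libraries was thus not tested. With the replicate number as a block, 7 members were called in KO against ctrl, among them Oog1, Oog2 and Oog3 (edgeR adjusted p = 0.0249, 0.0381 and 0.0437). The share of all genes called with the block is not given, so this count is not read as a result about the members. The block moved no other count by more than 1.5 times.

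Under total count scaling and DESeq2 size factors, 25.7% and 31.2% of the genes called in KO against ctrl were higher (22.4% as reported). In simulated data 49.5% of 2-fold and 72.9% of 4-fold changes were recovered for 0-6hpi against MII (15317 genes), and 3.06% and 35.7% for KO against ctrl (16179 genes). Far fewer genes were changed in the simulation than the 1358 called in KO against ctrl, which makes the adjusted threshold stricter there. The simulated rates therefore do not give the share of real 2-fold changes missed between genotypes, and such changes can be missed.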
